A study of Homo sapiens with 8 samples.

Results

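A set of 8 genes, of cholesterol synthesis, its control and PPARD, was followed in 5637 cells, an established line from a human bladder carcinoma, after stable TRMT61A knockdown and in control cells. They comprised HMGCS1, IDI1, FDFT1, SQLE and DHCR7, which encode enzymes of cholesterol synthesis, SREBF2 and INSIG1, which encode regulators of that pathway, and PPARD, which encodes a lipid-sensing nuclear receptor. They were chosen by gene name, and their data were the raw counts of the input libraries and the N1-methyladenosine (m1A) peaks listed under their names. All 8 members were among the 16547 genes of the mRNA count table and among the 13362 genes that passed the filter on low counts, so every member was tested.

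Cells build cholesterol from acetyl-CoA by way of mevalonate, farnesyl diphosphate and squalene. The transcription factor SREBP2, the product of SREBF2, raises transcription of most of these enzymes when membrane sterol is low, and INSIG1 holds it in the endoplasmic reticulum with its escort SCAP when sterol is high. PPARD pairs with a retinoid X receptor and responds to fatty acids, and m1A is a methylated adenosine best known in tRNA, where the TRMT6 and TRMT61A complex places it, and reported in mRNA mainly near 5′ ends.

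The TRMT61A knockdown group carried a stable knockdown, and its control, called NC in the titles, had a genotype given as WT. Both groups comprised 2 samples, each sequenced as input and after m1A immunoprecipitation, which makes 8 libraries in all. Nothing in the labels calls the replicates separate cultures, so p-values measure a spread between samples that may be technical, and the labels do not say whether the knockdown line was 1 clone or which vector the control carried. The comparison addresses how mRNA level and m1A differ when this methyltransferase is depleted.

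The mRNA counts summed to 38989448 and 37912238 in knockdown inputs 1 and 2, and to 30046283 and 42177927 in control inputs 1 and 2. TRMT61A itself had 13.4 and 6.71 CPM (read counts scaled to library size) in knockdown inputs, against 19.8 and 14.7 CPM in control inputs. Both knockdown libraries lay below both control libraries, with knockdown input 1 close to control input 2. The log2 fold change of -0.78 ± 0.29 (SE) missed the threshold of 0.05 (edgeR adjusted p = 1.00, unadjusted p = 0.0278). Leaving out knockdown replicate 1, the value was -1.36, and without knockdown replicate 2 it was -0.36, each with 1 knockdown library left. Of the urothelial and epithelial markers, 9 of 10 passed the count filter, among them KRT7 at 998 and 949 CPM in knockdown inputs and 931 and 1072 CPM in control inputs, while UPK2 had 4 and 7 counts against 5 and 17. The 9 summed to 4585 and 4747 CPM in knockdown inputs and 4356 and 5037 CPM in control inputs, which overlap. TP63, a basal cell marker, had 285 and 298 CPM in knockdown inputs and 258 and 232 CPM in control inputs (log2 fold change 0.25, edgeR unadjusted p = 0.0117, adjusted p = 1.00), while KRT5 had 0.22 and EPCAM -0.22. Hepatocyte markers passed in 0 of 5 cases, immune markers in 1 of 8, endothelial markers in 3 of 6 and fibroblast markers in 5 of 8. The fibroblast list summed to 38.6 and 53.2 CPM in knockdown inputs and 47.0 and 47.3 CPM in control inputs, the endothelial list to 1.34 and 2.31 CPM against 1.85 and 2.46 CPM, and the immune list to 0.98 and 0.44 CPM against 0.81 and 0.33 CPM. CD14, the immune marker that passed, had 38 and 17 counts in knockdown inputs and 24 and 14 counts in control inputs. The 7 immune markers below the filter had between 0 and 13 counts in an input. The lowest of them, CD68 and NKG7, had 0 counts in both knockdown inputs and 0 and 1 counts in the control inputs. LYZ had 13 and 0 counts in knockdown inputs and 1 and 9 counts in control inputs. In the fibroblast list COL1A1 had 27.8 and 39.5 CPM in knockdown inputs and 32.5 and 34.1 CPM in control inputs, most of each sum. COL1A2, COL3A1 and FAP were below the filter. Whether any fibroblast, endothelial or immune cells were present was not tested.

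Promoter windows of 300 bases (250 before and 50 after a transcript start) from RefSeq (build GRCh38.p14, the same coordinates as hg38) were at hand for 6 of the 8 members. They are printed for 3 members in which a listed m1A peak reached the window, because there the letters around the transcript start are also the letters under the peak. Each runs 5′ to 3′ on the gene's strand, and capitals mark the bases inside a peak. For HMGCS1 (chr5:43313363-43313662, minus strand) the capitals are the 150 bases that the peak listed in knockdown sample 1 has in the window. Another HMGCS1 window, chr5:43313132-43313431, was reached by the peaks of both control samples and by that of knockdown sample 1. It is not printed, because the control and knockdown peaks lie apart in it. For DHCR7 (chr11:71448344-71448643, minus strand) they are the 92 bases that a peak listed in knockdown sample 2 has there. For SREBF2 (chr22:41832855-41833154, plus strand) they are the 181 bases covered in at least 1 of the 4 samples by a peak that the lncRNA lists give to an antisense transcript, and not to SREBF2.
HMGCS1: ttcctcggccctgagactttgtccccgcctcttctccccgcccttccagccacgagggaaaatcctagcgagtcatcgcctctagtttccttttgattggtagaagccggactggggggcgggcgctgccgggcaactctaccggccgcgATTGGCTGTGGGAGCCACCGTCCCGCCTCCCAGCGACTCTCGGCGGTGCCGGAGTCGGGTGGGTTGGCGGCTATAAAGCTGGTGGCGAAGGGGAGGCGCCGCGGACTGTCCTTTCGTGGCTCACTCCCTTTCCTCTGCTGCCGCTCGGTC
DHCR7: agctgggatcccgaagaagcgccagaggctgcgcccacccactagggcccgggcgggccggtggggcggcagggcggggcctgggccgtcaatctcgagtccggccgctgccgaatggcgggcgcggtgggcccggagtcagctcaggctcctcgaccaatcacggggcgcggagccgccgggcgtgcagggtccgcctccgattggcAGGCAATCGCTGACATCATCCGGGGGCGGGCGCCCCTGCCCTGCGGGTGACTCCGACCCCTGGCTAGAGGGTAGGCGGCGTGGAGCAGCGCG
SREBF2: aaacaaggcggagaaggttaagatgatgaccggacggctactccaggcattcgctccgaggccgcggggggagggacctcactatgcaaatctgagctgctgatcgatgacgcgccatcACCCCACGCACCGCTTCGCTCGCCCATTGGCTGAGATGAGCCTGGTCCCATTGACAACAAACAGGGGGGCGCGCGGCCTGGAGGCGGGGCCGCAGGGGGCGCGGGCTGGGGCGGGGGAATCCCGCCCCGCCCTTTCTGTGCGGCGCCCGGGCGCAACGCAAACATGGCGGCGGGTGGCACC

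The bases in capitals were rich in G and C, at 68.0% in HMGCS1, 72.8% in DHCR7 and 74.0% in SREBF2. On the printed strand they held 15, 13 and 26 adenosines. In SREBF2 that strand is opposite to the antisense transcript for which the peak was listed. Searched on both strands, the core of the sterol regulatory element to which SREBP2 binds (TCACNCCAC) matched in the SREBF2 window, 133 bases before the start, and in none of the other 9 windows of the members. It matched in 1.13% of all 35116 RefSeq windows. The CCAAT box (CCAAT), bound by the factor NF-Y, matched 2 times in the HMGCS1 window printed above, 2 times in that of DHCR7 and 1 time in that of SREBF2, and in 34.6% of all windows. In PPARD the window held 1 CCAAT box and 1 E-box (CANNTG), a motif that 68.7% of all windows hold. INSIG1 held 1 CCAAT box and 2 E-boxes, and the CCAAT and E-box matches of IDI1, which overlap each other in part, fell in 2 of its windows. The hexamer that nuclear receptors recognise (AGGTCA), present in 13.8% of all windows, matched only in the second window of DHCR7, and its direct repeat with 1 base between, present in 0.0228%, in no window of a member. These matches describe letters and not bound sites.

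No mRNA of the 8 had a difference between knockdown and control inputs that passed the test against the spread between replicates, and the estimated differences were small. The number of members past an edgeR adjusted p of 0.05 was 0 of 8, where 0.0374% of all tested genes passed. Across the table that was 5 genes, CNTNAP2, HMOX2, NMRAL1 and TJP1 lower and LY6E higher in knockdown, named here after their values were seen. At an unadjusted p under 0.05 the number of members was also 0, where 3.30% of all tested genes fell under it, and it was 0 with DESeq2 and with limma-voom as well. FDFT1 fell under it with no filter on low counts. With only 1 library left in a group, it also did so without control replicate 2 and, together with DHCR7, without knockdown replicate 1. Adjusted p was 1.00 for each member, and unadjusted p was 0.0535 or more. The 95% intervals of all 8 log2 fold changes lay within 0.5 of zero.

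**Figure D1:**
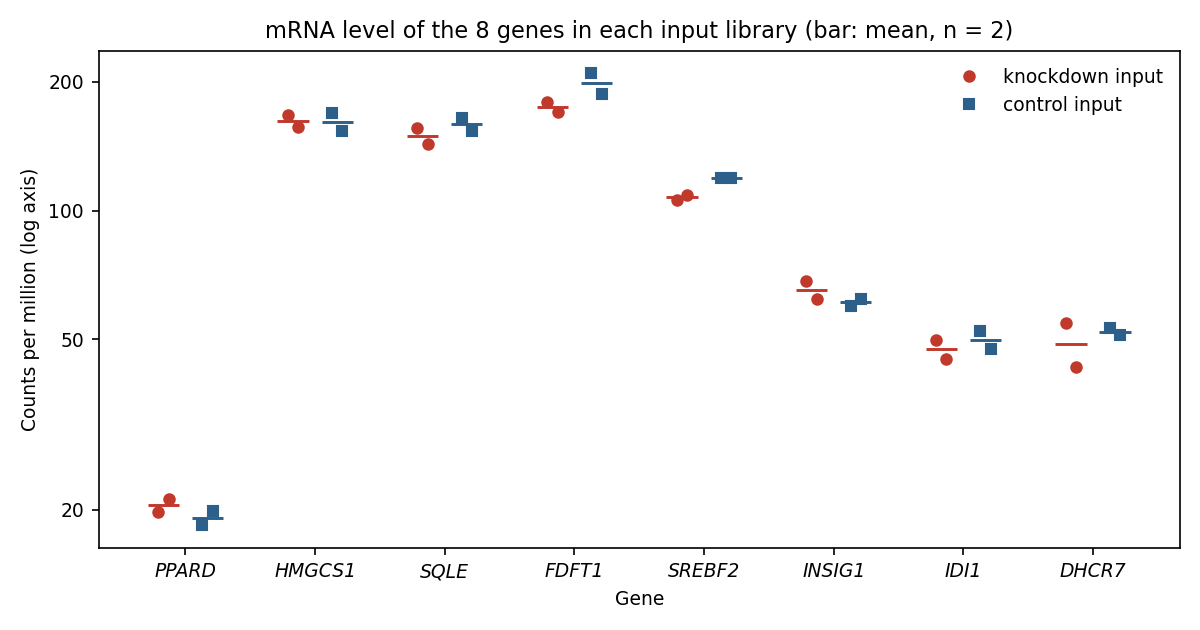
mRNA level of the 8 genes in each input library, in CPM (read counts scaled to library size) on a log axis; red circles are the 2 knockdown inputs, blue squares the 2 control inputs and bars the means. CPM is not corrected for transcript length, so levels compare within a gene and not between genes. Knockdown and control points overlap in 5 genes, knockdown lies below control in FDFT1 and SREBF2, and above it in INSIG1, with no gene past the test.

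Among the enzymes, HMGCS1 (chromosome 5, 43287470 to 43313412, minus strand) acts earliest, joining acetyl-CoA and acetoacetyl-CoA to HMG-CoA. It had 167 and 157 CPM in knockdown inputs and 169 and 153 CPM in control inputs, so that the groups covered the same range. Its log2 fold change was 0.01 ± 0.08 (SE), with a 95% interval of -0.17 to 0.19.

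IDI1 (chromosome 10, 1039152 to 1056704, minus strand) interconverts the isoprenoid building blocks isopentenyl and dimethylallyl diphosphate. It stood at 49.9 and 45.1 CPM in knockdown inputs and 52.3 and 47.5 CPM in control inputs, and the groups overlapped. The log2 fold change was -0.07 ± 0.10 (SE). The gene overlaps WDR37 at its 5′ end and the lncRNA IDI2-AS1 at its other end. WDR37 had 858 and 892 counts in knockdown inputs and 662 and 800 counts in control inputs. IDI1 also has pseudogenes named IDI1P1, IDI1P2 and IDI1P3. How the authors' counting split such reads is not given in the sources used here, so IDI1 values are uncertain to that extent.

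FDFT1 encodes squalene synthase, the first enzyme committed to sterols. It measured 179 and 170 CPM in knockdown inputs and 209 and 187 CPM in control inputs. Both knockdown libraries were below both control libraries, which held for 14.7% of all tested genes. The log2 fold change of -0.18 ± 0.08 (SE) had a 95% interval of -0.37 to 0.00, and unadjusted p was 0.0535 with edgeR, the smallest of the 8 members.

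SQLE encodes squalene epoxidase, which adds oxygen to squalene and is a rate-limiting enzyme of the pathway. It had 156 and 143 CPM in knockdown inputs and 165 and 154 CPM in control inputs. The higher knockdown library was above the lower control library. The log2 fold change was -0.09 ± 0.08 (SE).

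DHCR7 (chromosome 11, 71427287 to 71449043, minus strand) encodes 7-dehydrocholesterol reductase, which makes cholesterol from its last precursor in one branch of the pathway. It had 54.7 and 43.0 CPM in knockdown inputs and 53.0 and 51.3 CPM in control inputs. Knockdown input 1 was the highest of the 4 and knockdown input 2 the lowest, so the knockdown samples lay further apart than the group means. The log2 fold change was -0.09 ± 0.12 (SE).

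Of the regulators, SREBF2 (chromosome 22, 41833105 to 41907305, plus strand) encodes the activator of the pathway and had close replicates. It had 106 and 108 CPM in knockdown inputs and 119 CPM in each control input, a log2 fold change of -0.15 ± 0.07 (SE) with a 95% interval of -0.31 to 0.01 (edgeR unadjusted p = 0.0652). The groups did not overlap, yet the difference did not pass. SREBF2 contains the microRNA gene MIR33A and overlaps SREBF2-AS1 on the other strand.

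INSIG1 (chromosome 7, 155297878 to 155310235, plus strand), itself a target of SREBP2, was the member with both knockdown libraries above both control libraries, a pattern of 15.6% of all tested genes. It had 68.6 and 62.2 CPM in knockdown inputs and 60.0 and 62.1 CPM in control inputs. The lower knockdown value and the higher control value nearly met. Its log2 fold change was 0.10 ± 0.09 (SE).

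PPARD (chromosome 6, 35342558 to 35428178, plus strand) rested on 767 and 816 counts in knockdown inputs and 546 and 841 counts in control inputs. Scaled to depth these were 19.8 and 21.2 CPM in knockdown inputs and 18.4 and 19.9 CPM in control inputs, or 20.5 ± 1.01 and 19.1 ± 1.03 CPM (SD, n = 2 each). The groups overlapped, and the log2 fold change was 0.10 ± 0.12 (SE), with a 95% interval of -0.18 to 0.38.

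Over the 8 members, 3 values were higher and 5 lower in knockdown, with a median log2 fold change of -0.08, where the median of all tested genes was -0.00 and 6707 of 13362 genes were lower. In 5 of the 8 members, HMGCS1, SQLE, FDFT1, IDI1 and DHCR7, the input numbered 1 stood above the input numbered 2 in both groups, an order that 28.1% of all tested genes had. The same order was found in 13 of the 22 tested genes of sterol synthesis, among them these 5 members. It was found in 3 of the 12 of SREBP control, and no difference between these lists was tested. The 3 genes most like PPARD in their course over the 4 inputs, of 10610 other genes with a mean of at least 5 CPM, were RNGTT, SEPT8 and SMIM20, at a root mean square distance of 0.0043 to 0.0051 on the centred log2 CPM scale. Those most like the mean of the other 7 members were ALG2, QSOX2 and MYCBP, at 0.0058 to 0.0069. Over 4 libraries such likeness is a description.

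Across the whole route of sterol synthesis, 22 of 23 listed genes were tested, and the number past the threshold was 0 by edgeR, with 0 at an unadjusted p under 0.05. IDI2, a paralog of IDI1, had 0 and 0 counts in knockdown inputs and 2 and 0 in control inputs. The log2 fold changes ran from -0.27 to 0.08 with a median of -0.08, and 5 genes had higher and 17 lower values in knockdown. Without knockdown replicate 2, the number with lower values was 11. All 22 intervals lay within 1 of zero and 18 within 0.5. The intervals of PMVK, LSS, CYP51A1 and TM7SF2 reached further.

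**Figure D2:**
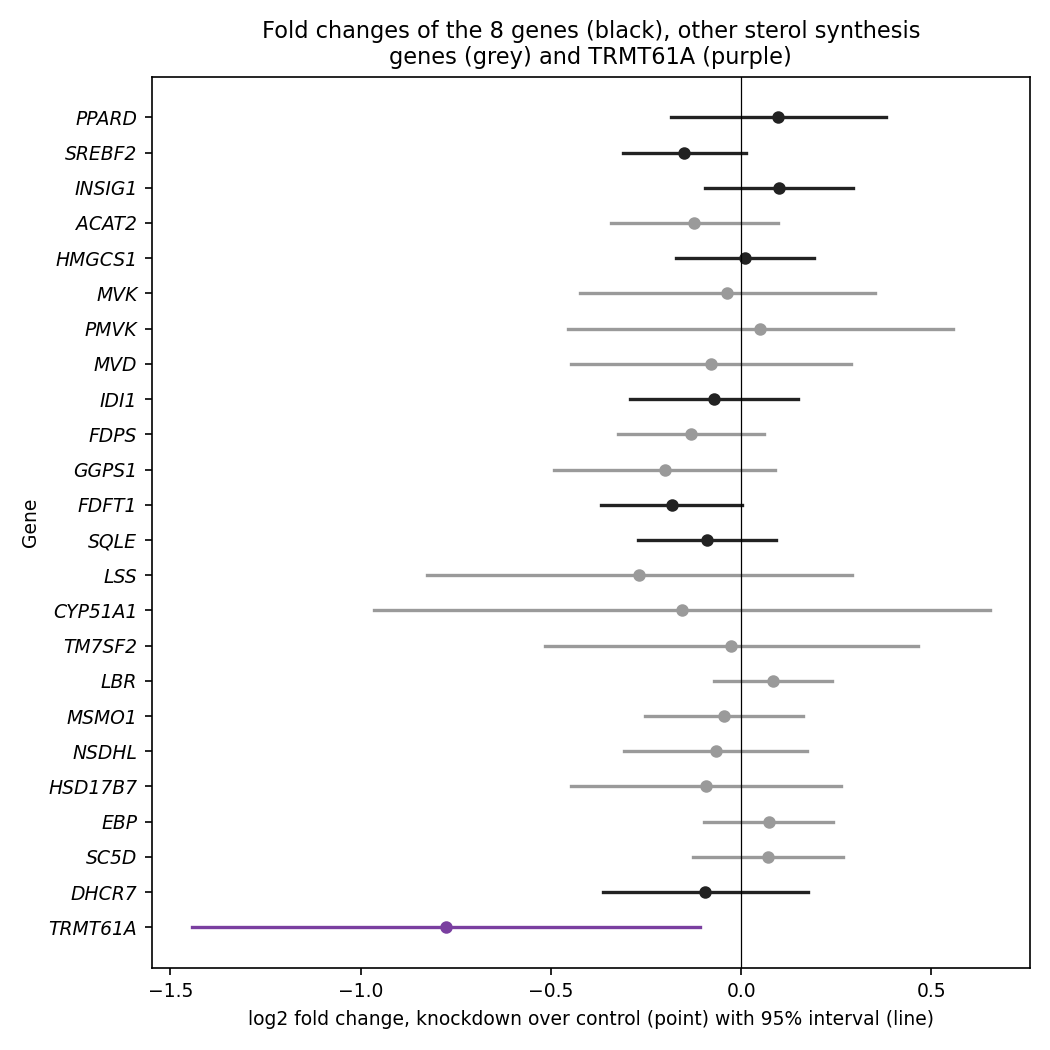
Log2 fold change of knockdown over control inputs (point) with its 95% interval (line) for the 8 genes (black), other tested genes of sterol synthesis in pathway order (grey) and TRMT61A (purple). All plotted intervals of the sterol genes include 0, and the point estimates lie between -0.27 and 0.10.

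Of the early enzymes, ACAT2, which condenses acetyl-CoA, had a log2 fold change of -0.12, with 80.9 and 78.4 CPM in knockdown inputs and 94.6 and 79.0 CPM in control inputs. The mevalonate kinases and decarboxylase had log2 fold changes of -0.04 (MVK), 0.05 (PMVK) and -0.08 (MVD), and the prenyl transferases -0.13 (FDPS) and -0.20 (GGPS1). LSS, which closes the squalene oxide ring to lanosterol, had the lowest value of the list, at -0.27 ± 0.25 (SE), with 13.5 and 10.5 CPM in knockdown inputs and 10.7 and 18.1 CPM in control inputs.

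For the steps from lanosterol to cholesterol, the log2 fold changes were -0.16 ± 0.36 (SE) for the demethylase CYP51A1, -0.03 and 0.08 for the reductases TM7SF2 and LBR, -0.04 for MSMO1, -0.07 for NSDHL and -0.09 for HSD17B7. The isomerase EBP and the desaturase SC5D each had 0.07. LBR and EBP were those of the list whose knockdown libraries both lay above both control libraries, and FDFT1 and GGPS1 those with both below. That is 2 of 22 in each direction, where 15.6% of all tested genes lay above and 14.7% below, so separated groups were no more frequent in the list than over all genes.

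The machinery that controls SREBP processing had 6 higher and 6 lower values among 12 tested genes, with a median log2 fold change of -0.00 and 0 past the edgeR threshold or at an unadjusted p under 0.05. By smallest p, SREBF2 came first, then RNF139, a ubiquitin ligase of this pathway, at 0.15 ± 0.09 (SE), and MBTPS2, the site-2 protease that frees SREBP, at -0.17 ± 0.12. SREBF1, the related factor that favours fatty acid synthesis, had 28.1 and 26.4 CPM in knockdown inputs and 28.3 and 31.3 CPM in control inputs. Among 14 genes of cholesterol uptake, storage and efflux, 5 were higher and 9 lower, and 0 passed. ABCA1, which exports cholesterol, had 37.3 and 52.7 CPM in knockdown inputs and 38.7 and 31.3 CPM in control inputs, a log2 fold change of 0.37 ± 0.17 (SE) with overlapping groups. The values of the lipoprotein receptor SCARB1 and of SOAT1, which esterifies cholesterol, were -0.20 ± 0.09 and 0.10 ± 0.07.

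Fatty acid synthesis, the neighbouring branch, had 1 higher and 7 lower values among 8 tested genes, with a median log2 fold change of -0.05 and 0 past the edgeR threshold. ACACA, the acetyl-CoA carboxylase of that branch, had 16.8 and 9.78 CPM in knockdown inputs, against 21.7 and 29.8 CPM in control inputs. Both knockdown libraries were below both control libraries, and the log2 fold change was -0.96 ± 0.25 (SE, edgeR unadjusted p = 0.0041, adjusted p = 1.00). It passed with DESeq2 (adjusted p = 0.0333). It did not pass with limma-voom or with any edgeR setting that kept all 4 inputs, where the smallest edgeR adjusted p was 0.143. Leaving out 1 input leaves 1 library in its group. The log2 fold change then ran from -1.40 (without knockdown replicate 1) to -0.62 (without knockdown replicate 2). FASN, the fatty acid synthase, and the desaturase FADS1 had -0.15 ± 0.09 and -0.10 ± 0.08.

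Of the PPAR receptors and their partners, 11 of 13 were tested, with 6 higher and 5 lower values, a median log2 fold change of 0.02 and 0 past the edgeR threshold. PPARA had 16.7 and 19.9 CPM in knockdown inputs and 14.7 and 17.7 CPM in control inputs, and PPARG, the receptor known for its part in urothelial differentiation, had 149 and 146 CPM against 153 and 147 CPM. Among those of low p in this list, RXRA, the PPAR partner, had a log2 fold change of -0.11 ± 0.08 (SE) and PPARA 0.17 ± 0.15. RXRB had 0 and 1 counts in knockdown inputs and 0 and 0 in control inputs, and RXRG was absent from the mRNA counts. Among PPAR targets known from other tissues, 11 of 14 were tested, with 5 higher and 6 lower and 0 past the threshold. PDK4, a pyruvate dehydrogenase kinase and well-known PPARD target, had 3.82 and 4.99 CPM in knockdown inputs and 3.0 and 3.59 CPM in control inputs, a log2 fold change of 0.41 ± 0.26 (SE). ACADVL and SLC25A20, both of fatty acid oxidation, had -0.19 ± 0.07 and 0.37 ± 0.22. ANGPTL4, another PPARD target, had 2 and 0 counts in knockdown inputs and 6 and 4 in control inputs. Hedgehog signalling, whose receptor component SMO binds cholesterol, had 7 of 12 genes tested, 5 higher and 2 lower, with 0 past the threshold. At an unadjusted p under 0.05 edgeR gave ACADVL among the PPAR targets and no gene of the receptor, Hedgehog and cholesterol uptake lists, and 0 genes of these lists passed with DESeq2 or limma-voom. The unadjusted calls depended on the tool, since DESeq2 gave ABCA1 and not ACADVL, and limma-voom gave ACADVL and not ABCA1. The smallest p values in the Hedgehog list were those of GLI3 at 0.14 ± 0.08 (SE), GAS1 at -0.48 ± 0.64 and SUFU at -0.07 ± 0.13, and TRMT6, the partner of TRMT61A, had 0.04 ± 0.10.

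The m1A peaks of the members differed from list to list. The authors' mRNA lists held 5793 and 3686 peaks in knockdown samples 1 and 2, and 6701 and 4319 in control samples 1 and 2. Under the 8 names there were 3 and 5 peaks in knockdown samples and 6 and 5 in control samples, which formed 10 separate regions, 4 of them listed in more than 1 sample. A peak was listed for 3 and 4 members in knockdown samples 1 and 2, and for 5 members in each control sample. Over the 13353 names of tested genes the share with a peak was 30.9% and 22.3% in knockdown samples 1 and 2, and 34.7% and 24.7% in control samples 1 and 2. In at least 1 sample 7 of the 8 members had a peak, where 51.3% of all tested genes did, and in every sample 2 members, FDFT1 and DHCR7, where 10.9% did. Without knockdown sample 1 PPARD joined them, and without knockdown sample 2 HMGCS1 did, which made 3 in either case. Samples differ in how many peaks were called, and read coverage of the regions was not analysed here, so a missing peak says only that none was listed. Edges of some peaks of HMGCS1, SQLE, FDFT1 and DHCR7 fell on the first base of a listed transcript. Whether peak bounds were cut to annotated transcripts or exons was not tested, so equal bounds need not mean equal signal. With 2 samples against 2 an exact permutation test cannot give a p below 0.33, and no difference in peaks was tested.

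**Figure D3:**
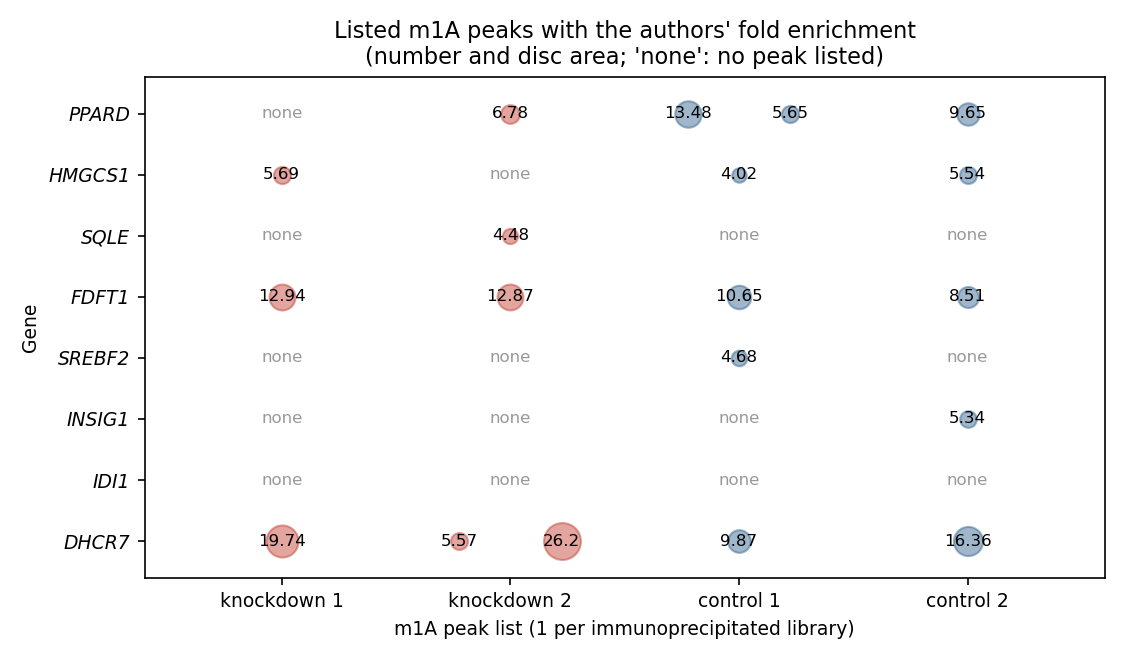
m1A peaks listed under each of the 8 names in the lists of knockdown samples 1 and 2 (red) and control samples 1 and 2 (blue); each disc is 1 peak, its area and number are the authors' fold enrichment, and "none" means that no peak was listed. FDFT1 and DHCR7 have peaks in all 4 lists and IDI1 in none.

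The FDFT1 peak kept its position from list to list and had the highest score of the members in every list but that of control sample 2, where DHCR7 scored 972. It was listed on the transcript ENST00000220584 in all 4 samples and covered 305 to 321 bases, beginning at the first base of that transcript in knockdown sample 1 and control sample 2 and 16 bases into it in the others. The authors' fold enrichment was 12.94 and 12.87 in knockdown samples and 10.65 and 8.51 in control samples. Scores, on a scale of 10 times the negative log10 p of the peak caller, were 1860 and 1990 in knockdown samples and 2276 and 922 in control samples, and 5.40% to 13.8% of peaks in the same lists scored higher. In the RNA the same gene showed no call, as given above.

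DHCR7 likewise had a peak in every list, on the transcript ENST00000526780, within chr11:71447610-71448078. Its fold was 19.74 and 5.57 in knockdown samples and 9.87 and 16.36 in control samples. The folds of the knockdown samples lay on either side of those of the controls. Its bounds moved with the sample, and the stretch common to all 4 lists was chr11:71447712-71447933. Knockdown sample 2 alone listed a second peak, chr11:71448290-71448435, with a fold of 26.20 and a score of 925, whose 5′ edge on the gene's strand is the first base of ENST00000355527. It is the region shown in capitals in the DHCR7 window.

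For PPARD the region chr6:35410987-35411217, which lies 68429 bases into the gene and is 231 bases long, was listed with identical bounds in 3 samples. The fold was 6.78 in knockdown sample 2, with no peak in knockdown sample 1, and 13.48 and 9.65 in the control samples. The scores were 160 in knockdown sample 2 and 797 and 257 in control samples 1 and 2. A second region, chr6:35420127-35420281, was listed in control sample 1 with a fold of 5.65. Which exons these regions cover was not analysed here.

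HMGCS1 had peaks in different places in the groups. In both control samples the region was chr5:43313022-43313224, with folds of 4.02 and 5.54, whose 5′ edge is the first base of the transcript ENST00000511774. In knockdown sample 1 it was chr5:43313356-43313512, with a fold of 5.69, whose 5′ edge is the first base of ENST00000433297 and which reaches 100 bases before the RefSeq gene start. Knockdown sample 2 listed none. The 2 regions do not overlap, and all 3 peaks had scores of 85.7 to 157, which 53.8% to 77.5% of the peaks in their lists exceeded.

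The other members had a peak in 1 list or in none. SQLE had 1 in knockdown sample 2, with a fold of 4.48 and a score of 72.7, beginning at the first base of ENST00000265896 and 572 bases long. SREBF2 had 1 in control sample 1 (chr22:41866831-41867280, fold 4.68), 33726 bases into the gene. INSIG1 had 1 in control sample 2 (chr7:155298259-155298697, fold 5.34), which lies where the lncRNA INSIG1-DT overlaps the gene, and the mRNA lists give no strand. IDI1 had none in any list.

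**Figure D4:**
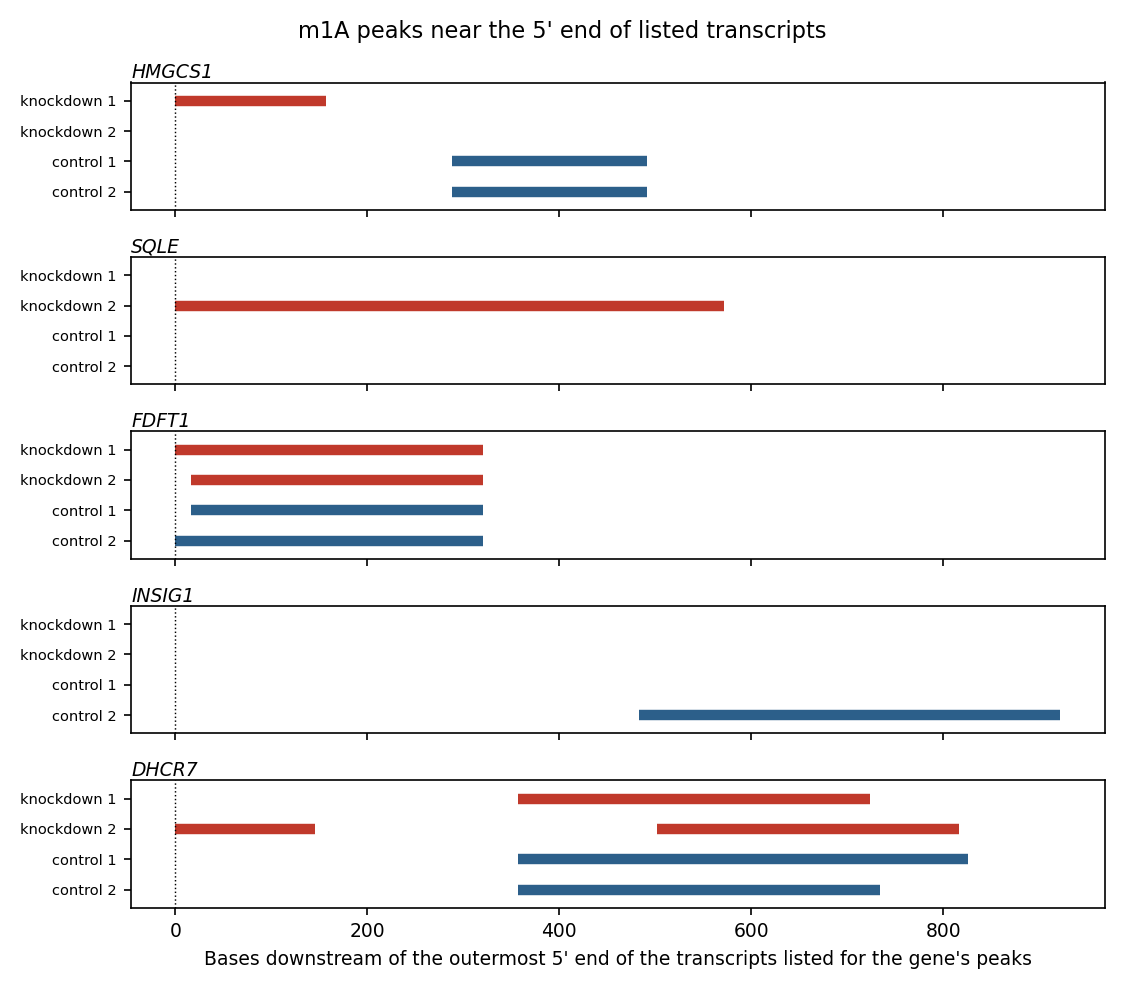
Position of the listed m1A peaks (bars) of 5 genes in knockdown samples 1 and 2 (red) and control samples 1 and 2 (blue). Positions are in bases downstream of the outermost known 5′ end of the transcripts listed for the gene's peaks (dotted line). For DHCR7 that is the 5′ end of ENST00000355527, listed for a peak of knockdown sample 2. The 5′ end of ENST00000526780, listed for the other DHCR7 peaks, was not at hand. FDFT1 peaks share their place in all 4 samples. DHCR7 has a peak in each of the 4 samples that overlaps the others in part, and a second peak in knockdown sample 2 only. HMGCS1 peaks of the control samples and of knockdown sample 1 do not overlap.

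At the 5′ end of SREBF2 the lncRNA lists gave a peak in all 4 samples to AL021453.1, an antisense transcript that RefSeq names SREBF2-AS1. Its fold was 4.09 and 6.75 in knockdown samples and 5.31 and 10.45 in control samples. The peak began at 41833133 in knockdown sample 1, inside SREBF2, and 102 bases before the SREBF2 start in knockdown sample 2, against 131 and 115 bases before it in control samples 1 and 2. It ran 395 and 401 bases past the start in knockdown samples and 830 and 623 bases in control samples. The antisense transcript had 5 and 16 counts in knockdown inputs and 1 and 3 counts in control inputs, against 4114 and 4172 counts of SREBF2 in knockdown inputs and 3531 and 5033 in control inputs. The strand of the reads in the peak was not analysed here, so sense and antisense RNA cannot be told apart.

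Among the 22 tested genes of sterol synthesis, 7 and 6 had a listed peak in knockdown samples 1 and 2, and 11 and 5 in control samples 1 and 2. The shares over all tested genes were 30.9% and 22.3% in knockdown samples and 34.7% and 24.7% in control samples, so the counts lay near them except in control sample 1. Those with a peak in all 4 lists were FDFT1, DHCR7 and CYP51A1, which is 3 of 22, where 10.9% of all tested genes had one. The CYP51A1 peak (chr7:92134173-92134530) had identical bounds in all lists and folds of 14.49 and 5.19 in knockdown samples and 4.93 and 10.98 in control samples, on a gene with 103 and 61 counts in knockdown inputs and 65 and 107 counts in control inputs. In both CYP51A1 and DHCR7 the fold varied within a group by more than it did between group means. Of the 12 genes of SREBP control, 4 and 1 had a peak in knockdown samples and 3 and 2 in control samples, beside the same shares over all tested genes.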

How the data were processed

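Per the labels' protocols, TRIzol total RNA was depleted of ribosomal RNA, enriched with an m1A immunoprecipitation kit and made into libraries with kits named as stranded. The submitters' processing notes name build hg38 and the tools STAR, HISAT2 2.0.4, edgeR and HTSeq 0.9.1, without their roles or a strand setting. The authors deposited raw read counts per gene of the 4 inputs, per the file headers, and 8 columns of normalized values were not used. They deposited 1 peak list per sample, whose identifiers have the form of MACS, with a fold enrichment (a linear ratio) and a score (10 times the negative log10 of p) per peak, per the file headers. Depth of the immunoprecipitated libraries was not analysed here.

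Counts of 30046283 to 42177927 per input were tested with edgeR 4.0.16 in R 4.3.3 (filterByExpr at a minimum count of 10, TMM, quasi-likelihood test with trended dispersions, no block, Benjamini-Hochberg over 13362 genes, threshold 0.05). The test was checked on simulated counts. CPM are counts scaled to TMM-adjusted library totals, and SEs follow from the F statistic. No row lacked a gene name. Alternatives were limma-voom (limma 3.58.1), DESeq2 1.42.0, its size factors in edgeR, a replicate block, no filter, a minimum mean count of 10, and the omission of each library in turn. For peaks they were a score of at least 100, a fold of at least 5 and an overlap of 50% of both peaks, against 1 shared base.

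Gene name and identifier matched the reference for all 8 members. Of the 16547 identifiers of the mRNA counts, 16503 occurred in the reference, without a comparison of their names. Transcript lengths were not used here, so levels are not compared between genes. The members and gene lists were chosen with earlier results of these data known. Named are the members, TRMT61A, all sterol synthesis genes and, in every other list, the 3 tested genes of smallest p and any past the threshold. Some genes that this rule takes in are counted but not reported here. Further genes were named after their values were seen.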

Additional observations from a re-analysis of the deposited data

How the results depend on the processing

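The number of members past the threshold was 0 under all 10 alternative settings of the count test, where the smallest adjusted p of a member was 0.383 (DHCR7, edgeR, without knockdown replicate 1). The number of all genes past it was 5, and 24 with DESeq2, 3 with limma-voom, 14 with no filter on low counts, and 11 to 135 when 1 input was left out, with the highest count without knockdown replicate 1. A fit without 1 input rests on 1 library in that group, so its p-values draw on no spread within that group. The number of sterol synthesis genes with lower values was 17, and 11 to 17 when 1 input was left out. HMGCS1, at 0.01, ranged from -0.058 to 0.079 when 1 input was left out, below 0 without knockdown replicate 1 or control replicate 2. DHCR7, at -0.09, ranged from -0.28 to 0.068, above 0 without knockdown replicate 2. For the 8 members and TRMT61A, 86 other values kept direction and side of the threshold. All 45 recomputed peak counts lay within 1.5 times, but some could not change. Leaving out another sample or asking for more overlap cannot alter the peak count of a list. At a score of at least 100, members with a peak in at least 1 sample fell from 7 to 5. A fold of at least 5 gave 5 as well. Regions listed in more than 1 sample fell from 4 to 3 under either setting. The causes were not tested.

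The labels do not say that equal replicate numbers mark pairs, and over 2 pairs the deviations of same-numbered inputs correlated at 0.0475 across genes. With the replicate number as a block 15 genes passed, 0 of them members. FDFT1 and SREBF2, the members under 0.05 there, then had unadjusted p of 0.0200 and 0.0484 (edgeR adjusted p = 0.723 and 0.820). With 2 libraries a group, differences near the interval widths given could be missed.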
